A study of Mus musculus with 67 samples.

Results

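Chromatin accessibility was compared between neuromesodermal progenitors (NMPs) collected on day 3 of a mouse embryonic stem cell differentiation and p2 neural progenitors sorted on day 4, pooled over the concentrations of SAG from which p2 cells were taken on that day. Samples were chosen by their titles, and 9 of the 67 samples of the series belong to the comparison. These are the 3 NMP samples and 6 p2 samples, 3 of them from 10 nM SAG and 3 from 100 nM SAG.

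The study followed the accessible chromatin of ventral spinal cord progenitors made in culture. The assay was ATAC-seq, in which a transposase inserts sequencing adapters into open chromatin. Cells were crosslinked and treated with the transposase, then stained for transcription factors inside the nucleus and sorted by those stains before their DNA was isolated. Replicates are described as independent differentiations. Besides p2, the types p0-1, pMN and p3 were sorted on days 4, 5 and 6.

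All groups came from the HM1 mouse embryonic stem cell line and shared the same first 3 days: bFGF and LGK up to day 2, then bFGF, CHIR99021, SB-431542 and DMH1 up to day 3. LGK blocks the secretion of Wnt ligands, CHIR99021 activates Wnt signalling by inhibiting GSK3, and SB-431542 and DMH1 inhibit TGF-beta and BMP receptors. NMP samples were collected at this point and had received no retinoic acid (RA) and no SAG, an agonist of Smoothened that activates the Hedgehog pathway. The p2 samples had then spent the next day in 100 nM RA with 10 or 100 nM SAG and were sorted as SOX2-positive cells with both PAX6 and NKX6.1. Day, RA, SAG and cell type all differ between the groups, so their parts in any change cannot be told apart, and no day 4 sample lacks RA. The text available does not say by which stains, if any, the NMP samples were sorted, so a difference in preparation from the sorted p2 samples cannot be told apart from the rest. Other groups from the same line and medium serve as references: p0-1 of day 4 from 0 and 10 nM SAG, pMN and p3 of day 4 from 100 and 500 nM SAG, and p2 of days 5 and 6 from 10 and 100 nM SAG. The closest group without SAG is p0-1 of day 4 at 0 nM SAG (n = 3), whose values are given beside those of p2 for a part of the elements.

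NMPs are cells of the posterior embryo that give rise to both spinal cord and paraxial mesoderm, and they are kept by Wnt and FGF signals under factors such as T (Brachyury), CDX and SOX2. Retinoic acid from the somites antagonises those signals and moves cells to a neural fate. Sonic hedgehog from the notochord and floor plate then sets apart ventral domains, of which p2, the source of V2 interneurons, lies just dorsal to the motor neuron domain pMN and carries PAX6, IRX3 and NKX6.1.

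Values are normalized counts, that is reads in an element divided by the size factor of the sample, recovered from the deposited log2 table. The table holds 111638 elements, and reads in elements were between 16809239 and 22066990 per sample for the 9 samples. The NMP samples had 18477963, 16809239 and 19271426 reads. Squared correlations of the log2 values across elements, which are not independent replicates, were 0.948 to 0.959 among NMP samples, 0.938 to 0.962 among p2 samples of the same SAG concentration and 0.926 to 0.971 across the 2 concentrations. Between NMP and p2 samples they were 0.432 to 0.595. The weakly covered elements also differed in level: between 2.75% and 5.25% of elements had no read in an NMP sample and between 0.157% and 0.419% in a p2 sample. The 25th percentile was 5.40 to 6.46 normalized counts in NMP and 14.1 to 16.6 in p2, while the 90th percentile was 580.5 to 647 in NMP and 413 to 479 in p2. The part of this difference in the results that follow was not tested.

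An element was tested when its mean over the 9 samples was above 100 normalized counts, which held for 31507 elements. It was called opened or closed in p2 when the limma adjusted p was under 0.01 and the log2 ratio of mean normalized counts, p2 over NMP, was above 2 or below -2. By this rule 7491 elements changed, 23.8% of those tested: 5199 opened, 16.5%, and 2292 closed, 7.27%. An unadjusted p under 0.05 was reached by 28255 tested elements, 89.7%, so the threshold on the ratio rather than the test sets the count. In a sorted population, fewer cells with an open element and a less open element in each cell cannot be told apart.

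The balance of the directions depended on the scaling. The median promoter-TSS element was 0.54 lower in p2 on the log2 scale of the table, and the median of all tested elements was 0.44 lower. With the samples centered on promoter-TSS elements, 5893 elements opened and 1198 closed, so that opened elements made up 83.1% of those called against 69.4% without centering. Centering on all tested elements gave 5755 opened and 1348 closed, 81.0%. When the threshold was lowered to a fold change above 2, more elements closed (8609) than opened (6539), and the same threshold after centering on promoter-TSS elements gave 7347 opened and 4189 closed. Without the filter on the mean, 27877 elements opened and 11291 closed. The mean over 9 samples weights p2 more than NMP; a filter on the mean of the 2 group means, chosen after seeing the data, left 4023 opened and 3246 closed elements, 55.3% opened. Below, changes are to be read against a median log2 ratio of -0.51 over all tested elements.

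**Figure D1:**
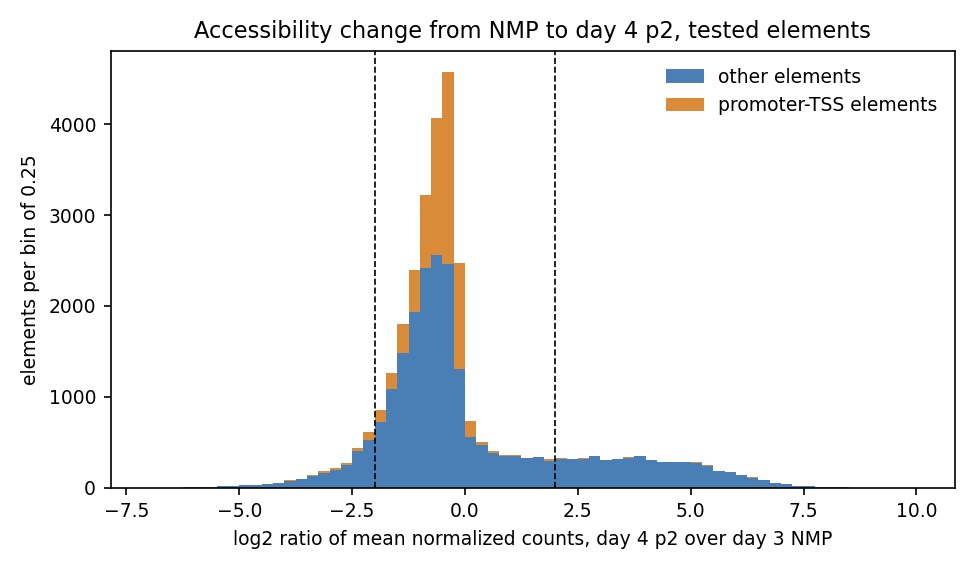
Number of tested elements by log2 ratio of mean normalized counts, p2 of day 4 over NMP of day 3, in bins of 0.25, with promoter-TSS elements stacked on the other elements and dashed lines at -2 and 2. The largest bins lie a little below 0, near the median of -0.51, and the long arm to the right of 2 holds almost no promoter-TSS elements, 50 of 5199.

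Opened and closed elements differed in where they lie. The median opened element went from 18.5 normalized counts in NMP to 275 in p2, with a median log2 ratio of 3.97. It was 1140 bp wide and 55164 bp from the nearest transcription start site (TSS). Of the opened elements, 48.3% were intergenic, 47.8% were in introns and 0.962% were annotated promoter-TSS. The median closed element went from 389 to 59.0 normalized counts, a log2 ratio of -2.58, was 12639.5 bp from a TSS and in 8.60% of cases was promoter-TSS. Among all tested elements, 22.9% were promoter-TSS and the median distance was 6220 bp. Of 7222 tested promoter-TSS elements, 50 opened and 197 closed, against 2513 opened and 927 closed of 9040 intergenic ones. Among the opened elements, 3 had no read in any NMP sample. For these 3, the log2 ratios are at least 7.09 in the lowest case and 7.95 in the highest, against a floor of 3 reads over the NMP group. Another 33 had 1 to 3 reads over the NMP samples.

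The share of reads in promoter-TSS elements moved in the same direction as these counts. It was 38.2%, 37.7% and 36.0% in the NMP samples and between 32.3% and 35.3% with a median of 34.0% in p2. All NMP samples lay above all p2 samples. The mean fell by 3.29 percentage points, from 37.3% ± 1.14 (SD, n = 3) to 34.0% ± 1.03 (SD, n = 6; two-sided exact permutation p 0.0119, the smallest that 84 arrangements can give). That test takes the 6 p2 samples as independent; with p2 samples of the same replicate number averaged, 3 against 3, the exact p was 0.1, the smallest that 20 arrangements can give.

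Markers of the labels were checked first, with the reservation that accessibility near a gene is not its expression and that PAX6 and NKX6.1 proteins were used to sort p2. Elements of several factors of the NMP state were more accessible in the NMP samples, though not those of every one. At the start of T, a T-box factor that defines the NMP and the primitive streak (chr17:8432253-8435075), the NMP samples had 1056, 1280.0 and 1188 normalized counts and the p2 samples were between 171 and 290.0 with a median of 218. Every NMP sample was above every p2 sample. The log2 ratio was -2.39 (adjusted p 2.57e-09), and -1.87 after centering on promoter-TSS elements, where the call is lost; quantile normalization, chosen after seeing the data, also lost it. An element 19576 bp upstream of T (chr17:8413624-8416071), annotated to an intron of T2, closed from 491 to 55.9, a log2 ratio of -3.13, and kept its call under both scalings.

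Cdx genes encode caudal homeodomain factors that posteriorize the axis. In the first intron of Cdx2 (chr5:147304301-147307639) the NMP samples had 3259, 4257 and 3541 and the p2 samples lay between 439 and 815 with a median of 583, a log2 ratio of -2.58 (adjusted p 3.40e-09). A second Cdx2 element, 2154 bp upstream (chr5:147309209-147309597), closed further, from 558 ± 102 (SD, n = 3) to 53.4 ± 14 (SD, n = 6), a log2 ratio of -3.38. Neither Cdx2 element had a p2 sample near the NMP values. At Cdx1 (chr18:61034480-61036757, intron 1) the NMP values were 2171, 2267 and 2449 and the p2 values between 85.2 and 143 with a median of 132. That loss, a log2 ratio of -4.23 (adjusted p 6.82e-12), was the largest among the Cdx elements named here. Cdx4 had 224, 190.2 and 148 in NMP in its first exon (chrX:103321022-103322399) and 22.5 to 42.5 in p2, without overlap. The group means were 187 in NMP and 31.5 in p2. The mean over the 9 samples, which weights p2 more than NMP, did not pass the filter, so the element was not tested.

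Of the remaining genes of the list, Nkx1-2 and Tbx6 changed less than T and Cdx2, while Evx1 changed more. Nkx1-2, a homeobox gene of the caudal epiblast, has 1 element over its first intron (chr7:132596819-132601279), where NMP samples had 1295, 1655 and 1525 and p2 samples were between 369.9 and 521 with a median of 451. The groups did not overlap, yet the log2 ratio of -1.76 did not reach the threshold. At Tbx6, a T-box gene of the presomitic mesoderm (chr7:126779856-126781284), NMP values of 801, 798 and 733 stood against 512 to 558 in p2. Its log2 ratio of -0.54 was close to the -0.50 of the median promoter-TSS element, became 0.01 after centering on promoter-TSS elements, and was not called. An element 2491 bp upstream of Evx1, an even-skipped homeobox gene of the tailbud (chr6:52310311-52311703), fell from 722 ± 126 to 51 ± 4.10 normalized counts (SD, n = 3 and n = 6), a log2 ratio of -3.82. All 3 tested Evx1 elements closed. The element nearest Msgn1, a bHLH gene of the presomitic mesoderm, lies 12699 bp away and had 23, 22.9 and 30.2 in NMP and 23.6 to 37.9 in p2; the samples overlapped, and neither Msgn1 element passed the filter. Of 28 tested elements at the 12 NMP and tailbud genes, 9 closed, 32.1% against 7.27% of all tested elements, 1 opened and 18 were not called. After centering on promoter-TSS elements 5 of the 28 closed, while the count over all tested elements fell from 2292 to 1198. The opened one was in the first intron of Sall4, a zinc finger factor (chr2:168762081-168762881), with 181, 125 and 226 in NMP and 623 to 1006 in p2; its log2 ratio of 2.13 dropped to 1.94, below the threshold, without NMP replicate 2. The median log2 ratio of the list was -1.58.

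For the p2 markers, the element nearest the TSS is given with the called element that has the largest ratio; the second was chosen for its call, so a difference between them follows from the choice. Pax6 encodes the paired-box factor used in the sort. Its TSS (chr2:105673776-105676787) was already open in NMP at 2009.7, 1565 and 1497 and was between 2470.2 and 3088 with a median of 2862 in p2. These groups did not overlap, but the log2 ratio of 0.74 was below the threshold. An element 103429 bp away (chr2:105779247-105779869), in an intron of Elp4, had 3.64, 2.70 and 1.08 in NMP and was between 148 and 209 with a median of 167 in p2, so that it was close to 0 in all 3 NMP samples and open in all 6 p2 samples. It opened with a log2 ratio of 6.15 (adjusted p 5.36e-11), and p0-1 cells without SAG had 183 ± 45.3 (SD, n = 3). It is the only one of 4 tested Pax6 elements that was called, where 16.5% of all tested elements opened and 7.27% closed.

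Nkx6-1 encodes the other homeodomain factor of the sort. Its TSS (chr5:101662711-101666976) had 2028, 2184 and 1993 in NMP and was between 1566 and 2034 with a median of 1855 in p2, with overlapping samples. The log2 ratio of -0.17 was not called and turned to 0.36 after centering on promoter-TSS elements. An intergenic element 367191 bp from that TSS (chr5:101296936-101298104) had 8.49, 5.40 and 26.9 in NMP and was between 781 and 1199.9 with a median of 1009 in p2. NMP replicate 3 was the highest of its group and still far below every p2 sample; the log2 ratio was 6.21 (adjusted p 1.98e-11). In p0-1 cells without SAG this element had 374 ± 55.7 (SD, n = 3), below the lowest p2 sample. Annotation to the nearest TSS does not show that an element at this distance acts on Nkx6-1. Of 15 tested elements annotated to Nkx6-1, 10 opened and none closed, against 16.5% and 7.27% of all tested elements; Nkx6-1 is also among the genes with the most opened elements listed below.

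Irx3, Olig2, Dbx1 and Sox2 are described in the same way. Of their tested elements, 6 of 15 opened and 1 closed at Irx3, and 2 of 4 opened at Olig2. At Dbx1, 1 of 7 opened and 1 closed, and at Sox2 1 of 6 opened. Of all tested elements, 16.5% opened and 7.27% closed. At Irx3, an Iroquois factor of the intermediate neural tube, the first exon had 2375, 2309 and 1623 in NMP and 2018 to 2507 in p2, while an element 52451 bp upstream (chr8:91853578-91854633) went from 9.70, 2.70 and 3.23 to values between 243 and 554 with a median of 511. The first of these overlapped between groups and the second did not. Log2 ratios were 0.12, not called, and 6.41 (adjusted p 3.22e-10), and p0-1 cells without SAG had 470.2 ± 156 (SD, n = 3) at the second. Olig2, the bHLH factor of the neighbouring pMN domain, was not more accessible at its start in p2: the NMP samples had 1158, 1191 and 993 and the p2 samples 602 to 931 there, an uncalled log2 ratio of -0.51 that became 0.02 after centering on promoter-TSS elements. At 32473 bp upstream (chr16:91192333-91193821), NMP samples had 35.2, 12.1 and 22.6 and p2 samples were between 1629.7 and 2159 with a median of 1964. The gap between the groups there was wide, with a log2 ratio of 6.35 (adjusted p 9.03e-13) and a difference of 5.83 ± 0.174 (SE) on the scale of the table. In p0-1 cells without SAG it was 1324 ± 162 (SD, n = 3).

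Dbx1, a homeobox gene of the more dorsal p0 domain, had overlapping samples over its second intron, with 880.0, 929 and 714 in NMP and 790.1 to 998 in p2. Its element 59780 bp upstream (chr7:49696204-49697027) opened from 8.49, 14.8 and 7.54 to values between 312 and 626 with a median of 426, a log2 ratio of 5.47, and p0-1 cells without SAG had more, 1058 ± 335 (SD, n = 3). No element of the table is annotated to Nkx2-2, the homeobox gene of p3. An element 8166 bp upstream of Nkx2-9, another gene of the ventral NK2 class (chr12:56621016-56621884), had 4.85, 8.09 and 4.31 in NMP and was between 55.5 and 369.6 with a median of 177 in p2, a log2 ratio of 5.04. The p2 samples of 10 nM SAG had 81.2, 55.5 and 170.0 and those of 100 nM 270.2, 185 and 369.6, so that every sample of 100 nM lay above every sample of 10 nM, and p0-1 cells without SAG had 14.6 ± 0.288 (SD, n = 3). Over the 15 progenitor domain genes, 32 of 82 tested elements opened, 39.0% against 16.5% of all tested elements, and 3 closed. Their median log2 ratio was 0.35.

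**Figure D2:**
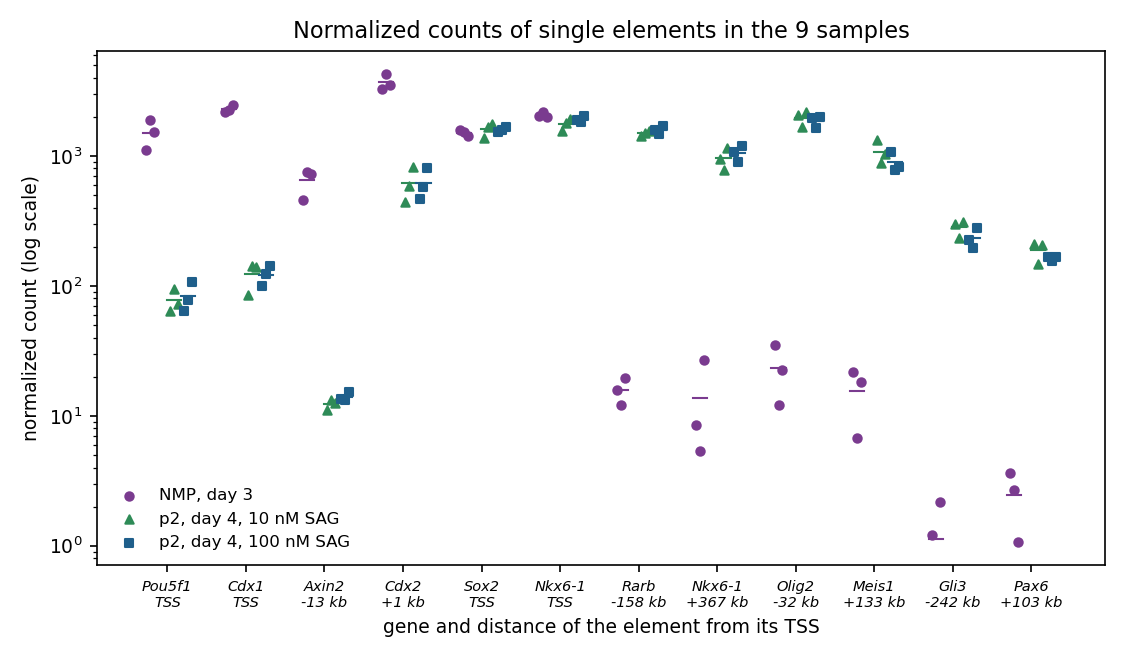
Normalized counts (log axis) of 12 elements in the 3 NMP samples and in the p2 samples of 10 and 100 nM SAG, with the mean of each group as a short line; 1 NMP sample of the Gli3 element is at 0 and is not drawn. Elements at the left are high in NMP, those at the starts of Sox2 and Nkx6-1 overlap between the groups, and those at the right are below 40 in every NMP sample and above 100 in every p2 sample.

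Genes of the neural progenitor state come next. Sox2, an SRY-box factor shared by NMPs and neural progenitors, was open at its start in both groups (chr3:34647869-34651377), with 1595, 1528 and 1415 in NMP and values between 1362 and 1766 with a median of 1623 in p2. The samples overlapped and the log2 ratio of 0.08 was not called. An intergenic element 29603 bp downstream (chr3:34678647-34680549) had 23, 18.9 and 30.2 in NMP and was between 178 and 355 with a median of 267 in p2. All p2 samples were above all NMP samples at this element, with a log2 ratio of 3.44 (adjusted p 4.39e-09). Sox1, a related factor that marks committed neural cells, opened 14322 bp downstream of its start (chr8:12409016-12410666) from 24.2, 24.3 and 16.2 to values between 357 and 625 with a median of 557, a log2 ratio of 4.61. Sox11, a SoxC factor, opened at an element 223498 bp from its start with a log2 ratio of 4.73. Over 14 genes of this list, of which Sox21 had no element, 10 of 52 tested elements opened (19.2%) and 2 closed, with a median log2 ratio of 0.04; the share of opened elements was close to the 16.5% of all tested elements.

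The medium held bFGF up to day 3, and CHIR99021, which activates the Wnt pathway, only from day 2 to day 3. Axin2 encodes a feedback inhibitor of Wnt signalling, and its element 13371 bp upstream (chr11:108906626-108907330) had 461, 757 and 731 in NMP and was between 11 and 15.2 with a median of 13.2 in p2. No p2 sample came near the NMP values. The log2 ratio was -5.63 (adjusted p 1.16e-11), and p0-1 cells without SAG had 11.2 ± 4.69 (SD, n = 3). Znrf3, a ubiquitin ligase that removes Wnt receptors, closed at an element in its first intron (chr11:5411317-5412204) from 558, 1006 and 844 to values between 12.6 and 18.6 with a median of 15.1, a log2 ratio of -5.73. All 3 tested elements of Sp5, a transcription factor induced by Wnt, closed, as did 3 of 6 at Nkd1, an inhibitor of Dishevelled. In the other direction, an element 437243 bp from Wnt5a, a ligand of the noncanonical pathway, rose from 4 to 181 (log2 ratio 5.50), and one 57381 bp from Wnt5b, a related ligand, from 10.2 to 167 (log2 ratio 4.04). These lie within introns of Erc2 and Erc1. Of 63 tested elements at the 15 Wnt genes, 16 closed, 25.4% against 7.27% of all tested elements, and 9 opened, 14.3% against 16.5%, with a median log2 ratio of -1.17. After centering on promoter-TSS elements 11 closed and 11 opened, where 1198 closed and 5893 opened of all 31507 tested elements. The opened share was thus not above that of all tested elements.

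In the FGF list, the ETS factors that act downstream of ERK had called elements in both directions: 2 of 4 tested closed at Etv4, 2 of 4 opened at Etv1, and 2 opened and 1 closed of 6 at Etv5. Etv4 closed at an element 16375 bp upstream (chr11:101801208-101802162), where NMP samples had 208, 419 and 463 and p2 samples were between 5 and 13.5 with a median of 11.2, a log2 ratio of -5.13 (adjusted p 1.20e-09). NMP replicate 1 was the lowest of its group and still far above p2. An Etv5 element 59362 bp from the start opened, from 14.5, 10.8 and 9.69 to values between 188 and 345 with a median of 269, a log2 ratio of 4.51. Etv1 opened at 111576 bp from its start with a log2 ratio of 6.07; its NMP values were 0, 0 and 9.69, so that all NMP reads came from replicate 3. Spry4, a feedback inhibitor of receptor tyrosine kinase signalling, closed at 30563 bp from its start (chr18:38570255-38571314), from 406 ± 85.9 to 29.9 ± 7.08 (SD, n = 3 and n = 6), a log2 ratio of -3.76. The 52 tested elements of the 14 FGF genes held 9 opened and 10 closed elements, 17.3% and 19.2% against 16.5% and 7.27% of all tested elements, with a median log2 ratio of -0.59. After centering on promoter-TSS elements 11 opened and 4 closed, where 5893 opened and 1198 closed of all 31507 tested elements.

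Retinoic acid was added at the time that NMPs were collected. Rarb encodes a retinoic acid receptor that is itself a target of the pathway. An element in its second intron (chr14:16732989-16734165) had 15.8, 12.1 and 19.4 in NMP and was between 1428 and 1684 with a median of 1538 in p2. The p2 samples were tightly grouped and every one was far above NMP. The log2 ratio was 6.61 (adjusted p 5.86e-14; difference 5.85 ± 0.112, SE, on the scale of the table), and p0-1 cells without SAG had 1526 ± 42.1 (SD, n = 3), within the range of p2. Crabp1, which encodes a cytosolic binding protein for retinoic acid, opened 4980 bp upstream (chr9:54759271-54760266) from 15.8, 16.2 and 15.1 to values between 403 and 579.6 with a median of 516, a log2 ratio of 5.00. Opened elements were also annotated to Cyp26b1, an enzyme that degrades retinoic acid (3 of 5 tested), to the reductase gene Dhrs3 (2 of 4) and to the corepressor gene Nrip1 (2 of 3). In all, 14 of 44 tested elements at the 14 genes opened, 31.8%, and none closed, against 16.5% and 7.27% of all tested elements. Their median log2 ratio of -0.50 was close to the -0.51 of all tested elements, and turned to 0.02 after centering on promoter-TSS elements.

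Only the p2 samples of the comparison had received SAG, the agonist of the Hedgehog pathway. Gli3 encodes the main repressor-forming factor of the pathway. Its element 242069 bp upstream (chr13:15221260-15222049) had 1.21, 0 and 2.15 in NMP, 3 reads in all, and was between 195 and 312 with a median of 255 in p2. No NMP sample came near p2 there. The log2 ratio was 7.84, with a 95% counting interval of 6.20 to 10.03 (adjusted p 2.92e-11), and p0-1 cells without SAG had 281 ± 36.6 (SD, n = 3). An element 65867 bp from Foxa2, a forkhead factor of the floor plate (chr2:147980705-147981500), opened from 6.06, 4.05 and 8.62 to values between 156 and 408 with a median of 259, a log2 ratio of 5.47; p0-1 cells without SAG had 344 ± 178 (SD, n = 3). Other elements of the list were lower in p0-1 cells without SAG than in p2. The start of Gli1, a target and effector of the pathway, had 1665, 1744 and 1756 in NMP, 2307 to 3754 in p2 and 1062 ± 144 (SD, n = 3) in p0-1 without SAG, and the Ptch1 element nearest its TSS, 7090 bp away, had 446, 424 and 418, 479 to 1376 and 311 ± 74.7 (SD, n = 3). Neither was called between NMP and p2, with log2 ratios of 0.77 and 0.95. Ptch1, the Hedgehog receptor and a target of the pathway, had 5 opened of 8 tested elements, and Gas1, a coreceptor gene, 4 of 6. Among the few that closed, Boc, which encodes another coreceptor, lost signal at 42903 bp upstream, from 622, 848 and 1285 to values between 58.4 and 77.5 with a median of 71.7, a log2 ratio of -3.70, and p0-1 cells without SAG had 74.6 ± 21.6 (SD, n = 3). Of 60 tested elements at the 13 genes, 23 opened, 38.3% against 16.5% of all tested elements, and 4 closed, 6.67% and so close to the 7.27% of all, with a median log2 ratio of 0.79.

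Meis1 and Meis2 encode TALE homeodomain cofactors of Hox proteins. An element in the ninth intron of Meis1 (chr11:18885483-18886288) had 21.8, 6.74 and 18.3 in NMP and was between 782 and 1317 with a median of 956 in p2, a log2 ratio of 5.98 (adjusted p 9.74e-12), with 981 ± 206 (SD, n = 3) in p0-1 cells without SAG. At Meis2, an intronic element (chr2:115923184-115924129) went from 9.70, 1.35 and 9.69 to values between 399.9 and 598 with a median of 459, a log2 ratio of 6.10. In both, the 3 NMP samples were low and the 6 p2 samples high, without overlap. Meis1 had 10 opened of 16 tested elements, and the 6 Meis and Pbx genes together had 16 opened of 39, 41.0% against 16.5% of all tested elements, none closed against 7.27%, and a median log2 ratio of 1.34. The elements nearest their TSSs had log2 ratios between -1.08 and 0.22 and were not called.

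Hox genes had few called elements: of 64 tested, 2 opened and 5 closed, 3.13% and 7.81% against 16.5% and 7.27% of all tested elements. Their median log2 ratio was -0.92. The closed share was thus close to that of all tested elements. Of the 64, 36 were the element nearest the TSS of a Hox gene. Over all tested promoter-TSS elements, 0.692% opened and 2.73% closed, and the part of element class in the low opened share was not tested. Both opened Hox elements and 1 of the closed ones were annotated to Hoxc4, an anterior gene of its cluster. The stronger of the opened ones lies 31338 bp from its TSS (chr15:103065362-103066105) and went from 9.70, 13.5 and 15.1 to values between 217 and 402 with a median of 288, a log2 ratio of 4.61. The other closed elements, 1 each, were at Hoxa10, Hoxd9, Hoxb13 (chr11:96189936-96190603; 256 to 47.3, log2 ratio -2.44) and Hoxc10 (chr15:102963443-102964110; 252 to 49.5, log2 ratio -2.35). None of the 5 closed Hox elements was called after centering on promoter-TSS elements, which left the Hoxb13 and Hoxc10 ratios at -1.90 and -1.82. Over all tested elements, that centering lowered the closed count from 2292 to 1198.

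Notch ligands and proneural factors help control when progenitors differentiate. Jag1, a Notch ligand, opened at 113477 bp upstream (chr2:137229362-137230632) from 18.2, 8.09 and 8.62 to values between 782 and 1077 with a median of 938, a log2 ratio of 6.32 (adjusted p 1.13e-12), and 5 of its 7 tested elements opened. In p0-1 cells without SAG the Jag1 element had 869.7 ± 111 (SD, n = 3). Neurod4, a proneural bHLH gene, opened at 23653 bp from its start (chr10:130256152-130257051), from 2.42, 2.70 and 5.38 to values between 251 and 379 with a median of 265, a log2 ratio of 6.40. Both elements were below 19 normalized counts in each NMP sample and above 251 in each p2 sample. Of 52 tested elements of the list, 13 opened, 25%, and none closed, against 16.5% and 7.27% of all tested elements, with a median log2 ratio of 0.33.

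**Figure D3:**
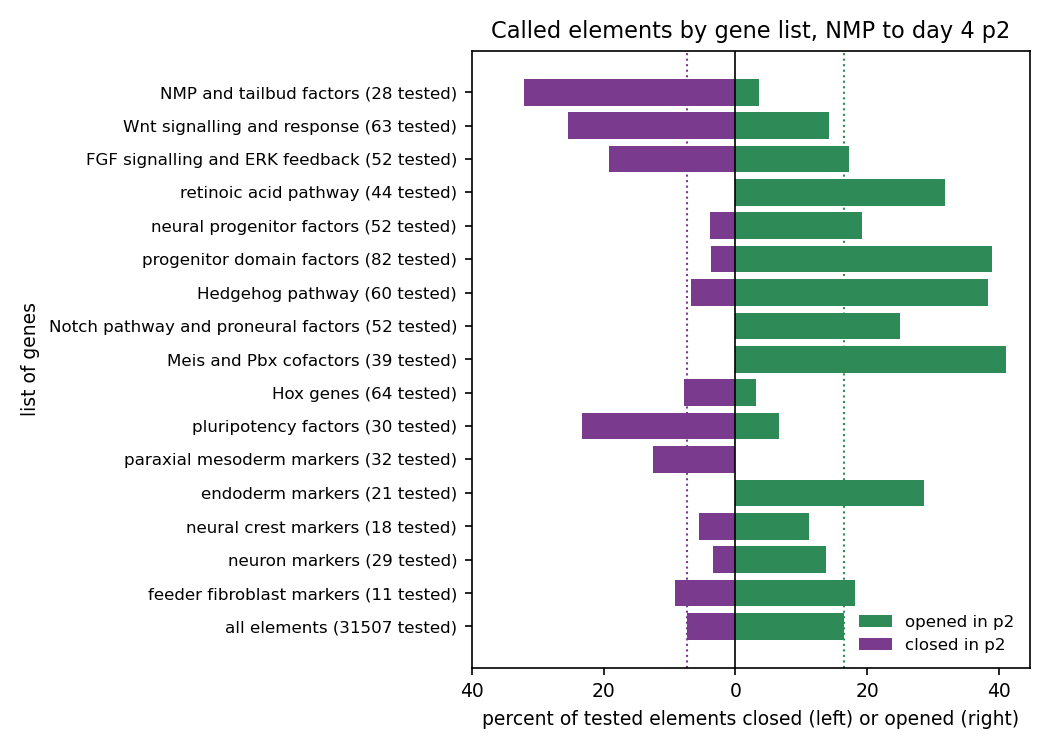
Percent of the tested elements of each gene list that closed (left of 0) or opened (right of 0) in p2 of day 4 against NMP, with dotted lines at the percentages of all tested elements, 7.27% and 16.5%. The longest bars to the right belong to the Meis and Pbx, progenitor domain and Hedgehog lists (41.0%, 39.0% and 38.3%), and the longest to the left to the NMP and tailbud, Wnt and pluripotency lists (32.1%, 25.4% and 23.3%).

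Pluripotency genes were checked because the cells come from an embryonic stem cell line. Pou5f1 encodes OCT4, a factor of pluripotent cells that is also present in the early posterior epiblast. Its promoter (chr17:35503751-35508265) had 1108, 1898 and 1532 in NMP and was between 63.5 and 107 with a median of 75.2 in p2. It was open in all NMP samples and every p2 sample was far lower, with a log2 ratio of -4.24 (adjusted p 5.29e-11). Tfcp2l1, a factor of naive pluripotency, closed in its second intron (chr1:118647816-118648612) from 309, 369.6 and 340.3 to values between 3.94 and 20.3 with a median of 9.79, a log2 ratio of -5.03. Elements opened in p2 were annotated to Klf4 (149203 bp away, log2 ratio 5.03), a Krüppel-like factor, and to the RNA-binding protein gene Lin28b (intron 4, log2 ratio 2.43). Of 30 tested elements at the 12 genes, 7 closed, 23.3% against 7.27% of all tested elements, and 2 opened, 6.67% against 16.5%. After centering on promoter-TSS elements 4 closed and 3 opened, where 1198 closed and 5893 opened of all 31507 tested elements. The median log2 ratio was -1.16. The summed normalized counts of the list were 19374, 19760.2 and 18554 in NMP and between 10792 and 12155 with a median of 11501 in p2, with the highest sum at Lin28a.

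Lists of other cell types that the dish could hold were measured in the same way, although a sort for SOX2, PAX6 and NKX6.1 together, as used for p2, selects against most of them. For 9 paraxial mesoderm genes, the other fate of NMPs, the summed normalized counts of all elements were 16948, 16507 and 15190.3 in NMP and between 7680.2 and 9254 with a median of 8866 in p2, with the highest sum at Uncx. Here 4 of 32 tested elements closed, 12.5%, and none opened, against 7.27% and 16.5% of all tested elements; the median log2 ratio was -1.26. Foxc1, a forkhead factor of somites, closed at 46082 bp upstream (chr13:31760196-31760933), with 319, 192 and 384 in NMP and 2.37 to 13.3 in p2, a log2 ratio of -5.18. Ripply2, a regulator of segmentation, closed at 34520 bp upstream, from 608 to 19.2, a log2 ratio of -4.99. In both, the NMP samples were all high and the p2 samples all low.

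For 7 endoderm genes, of which Foxa3 had no element, the sums were 11434, 11306 and 9645 in NMP and between 7512 and 10369.7 with a median of 9456 in p2. Of 21 tested elements, 6 opened, 28.6%, and none closed, against 16.5% and 7.27% of all tested elements, with a median log2 ratio of -0.72. Foxa1, a forkhead factor also of the floor plate, opened at 145429 bp from its start (log2 ratio 5.27) and Gata6, a GATA factor of early endoderm, at 14849 bp upstream (6.22). The Gata6 element had 2.42, 1.35 and 4.31 in NMP and 138 to 252 in p2, without overlap. For 6 neural crest genes, 2 of 18 tested elements opened and 1 closed, 11.1% and 5.56%, neither above the 16.5% and 7.27% of all tested elements, with a median of -0.78; the sums were 8792, 9068 and 8443 in NMP and between 5236 and 6279.8 with a median of 5759.8 in p2, the highest at Ets1. Of 5 tested Ets1 elements, 2 opened, the only opened ones of the list, and 1 closed. The closed one, in intron 3, went from 550.1 to 111, a log2 ratio of -2.31 whose call was lost after centering on promoter-TSS elements (-1.79) and after quantile normalization.

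Among 10 neuron markers, 4 of 29 tested elements opened, 13.8%, and 1 closed, 3.45%, neither above the 16.5% and 7.27% of all tested elements, with a median log2 ratio of -1.03. Their sums were 15743, 15401 and 13524 in NMP and between 9382 and 10448 with a median of 9897 in p2, the highest at Isl1. Elavl4 and Elavl3, which encode neuronal RNA-binding proteins, opened with log2 ratios of 5.41 and 2.95. An element near Mnx1, a homeobox gene of motor neurons, closed from 368 to 73.7, a log2 ratio of -2.32 that lost its call after centering on promoter-TSS elements (-1.80) and after quantile normalization. For 7 fibroblast genes, of which Lum had no element, 2 of 11 tested elements opened and 1 closed, 18.2% and 9.09%, close to the 16.5% and 7.27% of all tested elements, with a median of -0.90 and sums of 5479, 5476 and 5218 in NMP and between 3627 and 3774 with a median of 3694 in p2, the highest at Twist2. The opened ones were near the collagen gene Col1a2 (log2 ratio 2.47) and the bHLH gene Twist2 (2.83), and the closed one was in the first intron of Thy1, a surface glycoprotein gene (-2.53). In these 5 lists, no element nearest a TSS was at 0 in any of the 9 samples. The sum over all elements of the table was 0.795 of its NMP value in p2, and the part of other cell types in the results was not tested.

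The largest ratios lay mostly outside the lists. Those of increase are ranked among elements with at least 1 NMP read; the 3 opened elements without one have lower bounds only and cannot be placed. The highest ratio was in an intron of Sema3d, a secreted semaphorin (chr5:12525080-12525676), with 0, 0 and 2.15 in NMP, 2 reads in all, and values between 499 and 714 with a median of 609 in p2. Its log2 ratio was 9.72 with a 95% counting interval of 7.72 to 12.62 (adjusted p 1.30e-12). These intervals cover counting error only. Next came intergenic elements annotated to 1700020N15Rik (0, 0 and 1.08 in NMP, 190.2 to 356 in p2; log2 ratio 9.57, interval 6.95 to 14.73) and to the noncoding RNA gene Mannr (1.21, 1.35 and 0 in NMP, 422 to 567 in p2; log2 ratio 9.17, interval 7.41 to 12.31). In each of these, NMP samples had between 0 and 2.15 normalized counts and all p2 samples had more than 100. The others of the top 10, near Zpld1, Gtf3c3, Oprm1, Anxa1, Cntn6, Nrxn3 and Speer4f2, had log2 ratios between 8.31 and 8.97. For the 6 of these with 1 or 2 NMP reads, all but Speer4f2, the counting intervals had bounds no lower than 6.18 and no higher than 14.31. Cntn6 and Nrxn3 encode neuronal adhesion proteins. In p0-1 cells without SAG the Sema3d element had 638 ± 126 and the Mannr element 552 ± 39 (SD, n = 3).

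The lowest ratio was in an intron of Tenm2, a teneurin gene (chr11:36604786-36605477), with 166, 461 and 440.5 in NMP and values between 1.58 and 6.19 with a median of 3.36 in p2. NMP replicate 1 was the lowest of its group, and all were far above p2; the log2 ratio was -6.70 (adjusted p 1.70e-09). An intergenic element near Naa30, which encodes an acetyltransferase subunit (chr14:49155546-49156042), had 270.3, 452 and 420.0 in NMP and 2.50 to 5.65 in p2, a log2 ratio of -6.56. In Pdgfrl, a gene related to PDGF receptors, an element of the second intron (chr8:40938204-40939536) had 542, 928 and 689 in NMP and 2.54 to 12.5 in p2, a log2 ratio of -6.56. The remaining elements of the 10 largest losses, near Gucy1a2, Tmem145, Mir146b, Chd6, Gramd3, Tfap2c and Dysf, had log2 ratios between -6.29 and -6.10. Tfap2c encodes an AP-2 factor, and its element (chr2:172576903-172577953) went from 707, 781 and 1000.5 to values between 7.10 and 16 with a median of 12.9.

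Called elements were also counted for each gene. The genes named here are the highest counts over all genes, whether called elements gather at single genes was not tested, and of all tested elements 16.5% opened and 7.27% closed. An element that is low in NMP passes the filter on the mean only where p2 is high, so these shares depend on the filter. The genes with the most opened elements were 9430078K24Rik (12 of 19 tested), Zfp608 (11 of 22), Sox6 (10 of 10), Nkx6-1 (10 of 15), Meis1 (10 of 16), Tle1 (9 of 10), Tenm3 (9 of 14), Nr2f1 (8 of 11), Pdzrn3 (8 of 12) and Adgrl2 (8 of 13). Sox6 encodes a SoxD factor, Tle1 a Groucho corepressor and Nr2f1 the orphan receptor COUP-TFI. Those with the most closed elements included C77080 (6 of 8), Cdh1 (5 of 6), Mir692-2 (5 of 9), Ttc29 (5 of 9), Ddit4 (5 of 10), Grsf1 (4 of 5), Tfap2c (4 of 7), Fzd10os (4 of 8) and Trim8 (4 of 9). Cdh1 encodes E-cadherin, the adhesion protein of the epithelial epiblast; its 5 closed elements had log2 ratios between -4.29 and -2.66, with a median of 587 in NMP and 50.6 in p2, and its remaining tested element opened. Elements called in the opposite direction were also found at Ttc29 (2), Fzd10os (1), Trim8 (1), 9430078K24Rik (1) and Adgrl2 (1).

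Sequence features were read from GRCm38, the build of the elements, in the central 300 bases of each tested element (44 elements are shorter and were read whole), on both strands. The median GC content was 46.0% in opened, 53.7% in closed and 55.0% in tested elements, and its part in the shares that follow was not tested. The SOX motif ACAAAGG was in 18.2% of opened, 8.16% of closed and 8.47% of tested elements, and its variant ACAATGG in 14%, 3.1% and 4.93% of the same sets. Leaving out promoter-TSS elements, the shares of ACAAAGG were 18.3%, 8.31% and 9.85%. The homeodomain core TAATTA was in 9.73% of opened, 4.89% of closed and 4.62% of tested elements, and TGACAG, the MEIS and TGIF motif, in 26.3%, 19.2% and 18.6%. Opened elements thus held these 4 motifs more often than closed or tested ones.

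The nuclear receptor motif AGGTCA was in 19.5% of opened, 18.4% of closed and 15.2% of tested elements; the retinoic acid receptor direct repeat with a spacing of 5 bases (DR5), which contains it, was in 6 opened and no closed elements of 10 among those tested. CDX motifs were more frequent in opened than in closed elements, with TTTATGG in 5.64%, 2.88% and 2.76% and TTTATTG in 6.87%, 4.45% and 3.44% of opened, closed and tested elements. The TCF/LEF motif CTTTGAA was in 9.17%, 9.25% and 5.43%, so that both changed sets held it more often than tested elements. In closed elements, the AP-1 motif TGACTCA (5.33%, 9.34% and 4.23%), the E-box CAGCTG (20.9%, 25.1% and 19.6%), the octamer ATGCAAAT (2.02%, 3.01% and 1.67%) and the T-box motif TCACACC (3.96%, 5.24% and 3.58%) were more frequent than in opened ones. The remaining shares, again for opened, closed and tested elements, were 0.866%, 0.96% and 1.11% for the GLI motif GACCACCC, 5.02%, 3.4% and 3.74% for the RFX motif GTTGCCA, 0.135%, 0.654% and 2.33% for the ETS motif CCGGAAGT and 4.79%, 9.77% and 10.5% for the CTCF core AGGGGGC. Leaving out promoter-TSS elements, the shares of the ETS motif were 0.136%, 0.668% and 0.980%. A match describes the letters of a window and is no evidence of binding.

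The central 300 bases of the 3 elements with the highest ratios among those with an NMP read are shown because they went from almost no NMP reads to an open state in p2, on the + strand of GRCm38, with matches to the motifs above in capitals. Their ratios rest on 1 or 2 NMP reads, and others, such as the Rarb and Olig2 elements, gained more normalized counts. Matches on the - strand appear as reverse complements, such as CTGTCA for TGACAG. They lie at chr5:12525228-12525527, chrX:69924412-69924711 and chr3:29852482-29852781. The capitals mark a MEIS and TGIF motif in the Sema3d element and a nuclear receptor motif in the 1700020N15Rik element. In the Mannr element they mark 2 copies of the SOX variant, 1 CDX variant, 1 AP-1 motif and 1 MEIS and TGIF motif.
Sema3d element: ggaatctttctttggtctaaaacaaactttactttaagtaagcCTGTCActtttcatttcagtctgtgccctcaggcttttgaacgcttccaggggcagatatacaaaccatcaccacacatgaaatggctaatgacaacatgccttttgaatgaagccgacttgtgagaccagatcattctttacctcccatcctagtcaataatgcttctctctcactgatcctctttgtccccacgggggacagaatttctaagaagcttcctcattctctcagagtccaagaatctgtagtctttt
1700020N15Rik element: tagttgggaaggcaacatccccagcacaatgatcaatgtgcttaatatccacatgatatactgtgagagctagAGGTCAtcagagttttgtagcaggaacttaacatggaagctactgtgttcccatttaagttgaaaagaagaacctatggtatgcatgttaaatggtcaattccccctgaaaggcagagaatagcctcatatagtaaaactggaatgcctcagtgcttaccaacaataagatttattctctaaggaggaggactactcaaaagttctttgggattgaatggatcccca
Mannr element: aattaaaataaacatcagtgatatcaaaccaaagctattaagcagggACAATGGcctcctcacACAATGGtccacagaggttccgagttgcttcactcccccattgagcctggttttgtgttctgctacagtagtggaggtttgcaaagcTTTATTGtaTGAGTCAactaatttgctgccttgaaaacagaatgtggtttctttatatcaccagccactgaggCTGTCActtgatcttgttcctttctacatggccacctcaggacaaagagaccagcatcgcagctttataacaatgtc

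The central 300 bases of the 3 elements with the lowest ratios follow in the same form, as the largest relative losses, at chr11:36604981-36605280, chr14:49155644-49155943 and chr8:40938720-40939019. Capitals mark a homeodomain core in the Tenm2 element, a TCF/LEF motif and an E-box in the Naa30 element, and a MEIS and TGIF motif followed by a TCF/LEF motif in the Pdgfrl element.
Tenm2 element: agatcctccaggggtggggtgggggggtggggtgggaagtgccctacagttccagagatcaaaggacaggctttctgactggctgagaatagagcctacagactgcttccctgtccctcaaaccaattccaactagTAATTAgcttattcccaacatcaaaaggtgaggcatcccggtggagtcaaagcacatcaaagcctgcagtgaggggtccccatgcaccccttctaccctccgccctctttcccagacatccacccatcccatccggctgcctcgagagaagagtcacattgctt
Naa30 element: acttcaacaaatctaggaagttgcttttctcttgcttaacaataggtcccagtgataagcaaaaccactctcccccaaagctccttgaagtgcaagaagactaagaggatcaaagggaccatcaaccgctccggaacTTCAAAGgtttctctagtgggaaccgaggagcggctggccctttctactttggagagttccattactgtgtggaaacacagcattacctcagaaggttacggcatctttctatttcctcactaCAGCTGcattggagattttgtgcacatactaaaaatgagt
Pdgfrl element: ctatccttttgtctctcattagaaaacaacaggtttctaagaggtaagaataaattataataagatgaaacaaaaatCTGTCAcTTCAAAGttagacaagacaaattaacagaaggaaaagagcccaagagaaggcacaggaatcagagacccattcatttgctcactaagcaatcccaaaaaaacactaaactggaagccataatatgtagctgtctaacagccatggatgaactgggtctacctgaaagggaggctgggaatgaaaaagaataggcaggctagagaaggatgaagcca

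Whether the 2 pooled concentrations of SAG differed was tested within p2. Between 10 and 100 nM, limma called 0 of 29908 tested elements (0%), with 628 at an unadjusted p under 0.05, and limma voom called 0, with 607 at an unadjusted p under 0.05. With replicate number as a block the count was also 0, with 5394 at an unadjusted p under 0.05, more than without the block. The main fit leaves out these numbers, although p2 samples of the same number correlated at 0.691 to 0.785 between the concentrations. A count of 0 was also found at a fold change above 2. Smaller differences were not counted, so the 2 concentrations are not shown to be alike. At single elements the samples of the 2 concentrations overlapped, as at Nkx6-1 and Olig2 in the plot of single elements, or did not. The distal Dbx1 element had 626, 485 and 614 at 10 nM and 324, 367 and 312 at 100 nM, without overlap. The Nkx2-9 values above did not overlap either, and at the Foxa2 element described below they were 161, 217 and 414 at 10 nM and 464, 501 and 734 at 100 nM. None of these was called between the concentrations. Against NMP, the opened elements had a mean of sample medians of 287 normalized counts at 10 nM and 262 at 100 nM.

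Other day 4 types had been through the same day in RA, and the medians of the opened and of the closed elements lay on the p2 side of NMP in each of them. Single elements could differ, as at the second Foxa2 element described below. These values all stand against the same NMP samples. The median opened element had a mean over samples of 17.8 in NMP, 274 in p2, 242 in p0-1, 281 in pMN and 215 in p3, and the median closed element 393, 59.3, 67.4, 57.7 and 62.7. In p0-1 without SAG these means were 276 and 61.7, and in p0-1 of 10 nM they were 209 and 73.2. Of the latter samples, replicate 3 had 2.92% of elements without a read and a 25th percentile of 9.43 normalized counts. It was closer to NMP in both than the other p0-1 samples of day 4 were. The elements were chosen by their change in p2, so these medians are a description. In p2 of days 5 and 6, the opened set had 346 and 284 and the closed set 39.7 and 34.9, so the closed elements were lower on each later day while the opened ones were highest on day 5.

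**Figure D4:**
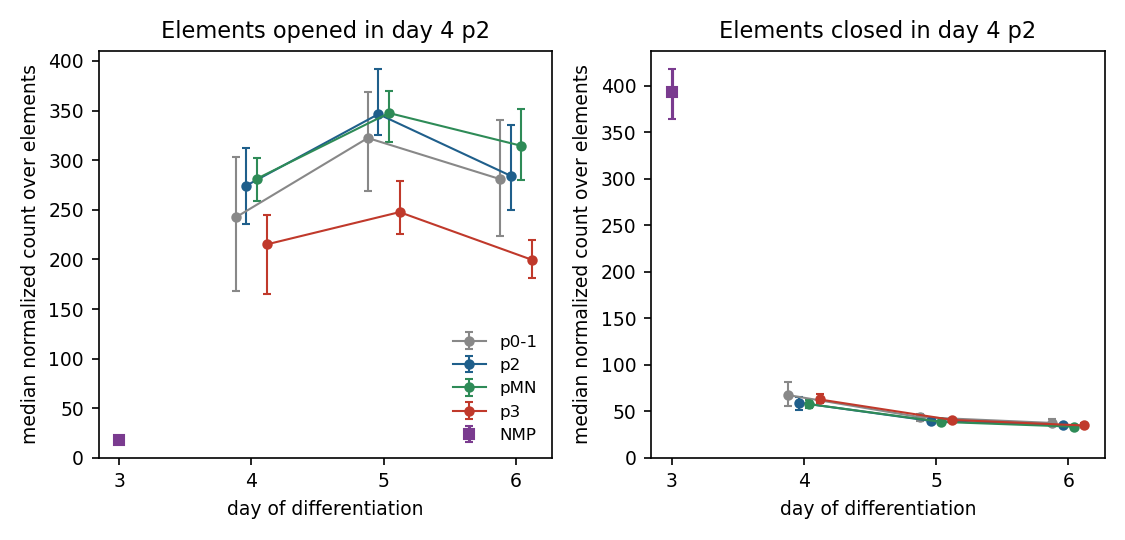
Median normalized count over the 5199 opened (left) and 2292 closed (right) elements by day of differentiation; points are means over the samples of a type, pooled over SAG, and bars run from the lowest to the highest sample. NMP of day 3 lies below 21 in the opened set and above 363 in the closed set, apart from every sample of the later types.

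Direct tests against the other day 4 types show where p2 differed from them in samples pooled over SAG. SAG concentration differed along with cell type in these tests. The p0-1 samples came from 0 and 10 nM and the p2 samples from 10 and 100 nM. Both pMN and p3 came from 100 and 500 nM. No test was run between types at the same concentration, so the part of SAG in these differences was not tested. Between p2 and p0-1 (6 samples each, with 0 or 10 nM SAG in p0-1), 6 of 29657 elements were called, 0.0202%, all higher in p2. They are annotated to Nkx2-9, Nxph1, Foxa2, 1700008P02Rik, 1700024I08Rik and Gm815. With replicate number as a block the count was 11. Without p0-1 10 nM replicate 3, the sample with 2.92% of elements at 0 reads, it was 6. The Nkx2-9 element had 4.31 to 8.09 in NMP, 14.4 to 41.3 in p0-1, 55.5 to 369.6 in p2, 370.4 to 1015 in pMN and 438 to 759.9 in p3. Its values in p2 thus lay between those of p0-1 and the more ventral types, an order that the SAG concentrations share. The log2 ratio over p0-1 was 2.98 (adjusted p 0.00872). In Nxph1, which encodes a neurexophilin, an intronic element (chr6:9002484-9003341) had 7.27 to 11.8 in NMP, 17.6 to 51.1 in p0-1 and 113 to 379 in p2, a log2 ratio over p0-1 of 2.68 (adjusted p 0.00117). The same element had 398 to 670 in pMN and 75.8 to 330 in p3. A second Foxa2 element, 9968 bp from the TSS (chr2:148036783-148037220), had 41.2 to 106 in NMP, 42.2 to 121 in p0-1, 161 to 734 in p2, 610 to 934 in pMN and 396 to 861 in p3. Its log2 ratios in p2 were 2.38 over p0-1 (adjusted p 0.00839) and 2.51 over NMP. The latter call was lost with limma voom and with p2 of 10 nM only.

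The count of 6 rests on few samples. It was 2 without p0-1 0 nM replicate 2, p0-1 0 nM replicate 3, p0-1 10 nM replicate 2 or p2 100 nM replicate 1, 3 without p2 100 nM replicate 2 or p2 10 nM replicate 3, and 1 without p2 100 nM replicate 3. It was 3 by limma voom or with the threshold on the log2 scale of the table, 48 without the filter on the mean and 56 at a fold change above 2, and the Nkx2-9 and Foxa2 calls were lost in 9 and 10 alternatives.

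Between p2 and pMN (6 samples each), 3 of 29912 elements were called, 0.01%, all lower in p2, at Esrrg, Sgk1 and Psat1. The Sgk1 element, in an intron of a kinase gene (chr10:21887129-21888073), had 5.38 to 7.27 in NMP, 53 to 101 in p0-1, 94.1 to 218 in p2 and 585 to 850.1 in pMN. It opened from NMP to p2 (log2 ratio 4.77) and was lower in p2 than in pMN (log2 ratio -2.14, adjusted p 3.02e-05). Esrrg encodes an orphan nuclear receptor, and its intronic element had 0 to 6.74 in NMP, 29.2 to 69.4 in p2 and 202 to 319.9 in pMN, a log2 ratio of -2.24 (adjusted p 3.28e-05). For the element near Psat1, a gene of serine synthesis, the log2 ratio was -2.04, a call lost without p2 100 nM replicate 1 (-1.98), p2 10 nM replicate 1 (-1.98) or p2 10 nM replicate 2 (-1.96). With the threshold on the log2 scale of the table the count was 2, and the Psat1 difference on that scale was -1.76. The count was 3 with the block, 6 without pMN 100 nM replicate 2 and 5 without p2 100 nM replicate 3, 15 without the filter and 83 at a fold change above 2.

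Between p2 and p3 (6 and 5 samples), 425 of 29618 elements were called, 1.43%, of which 335 were higher and 90 lower in p2. The 3 p3 samples of 100 nM had 9298160, 9577692 and 13974633 reads in elements, against at least 18806756 in p2. In them 2.99%, 2.18% and 0.982% of elements had no read. The part of depth in these counts was not tested. The 335 had a median of 11.4 in NMP, 259 in p2 and 48.4 in p3, and the 90 had 11.0 in NMP, 44.2 in p2 and 265 in p3. NMP samples were low in both sets and were not part of the test. The largest ratios were those of elements near Frmd4b (log2 ratio -4.35, adjusted p 4.11e-07), 4933417O13Rik (-4.35) and Gm4668 (-4.30). The Frmd4b element, annotated to a scaffold protein gene, had 1.35 to 3.64 in NMP, 8.47 to 22.8 in p2 and 139 to 389 in p3. The count was 3479 without the filter and 2179 at a fold change above 2. Leaving out 1 sample gave 225 to 391 higher and 59 to 131 lower in p2, the fewest lower ones without p3 500 nM replicate 3.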

How the data were processed

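CaTS-ATAC values of 67 samples were used, 9 of them in the main comparison. Per the methods of the study, the authors aligned reads to mm10, called consensus peaks with MACS, counted reads with featureCounts, normalized by DESeq2 size factors and deposited a variance-stabilizing transformation on a log2 scale. A deposited HOMER annotation gives coordinates and the nearest TSS. The transformation was inverted, and in every sample 100% of recovered values below 1000 reads were whole within 1e-06. Of 111638 elements, all lie on GRCm38 chromosomes and 0 end beyond them; of 8235 promoter-TSS elements with a matched gene, 7427 lie within 5000 bp of it. The annotation holds another 21911 elements without values.

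Linear models of the log2 values were fitted with limma 3.58.1 in R 4.3.3, letting the variance follow mean accessibility. Tests were two-sided, and p was adjusted (Benjamini-Hochberg) across elements averaging above 100 normalized counts. The single share of reads was tested by exact permutation over the samples in Python 3.11.15 with numpy 2.4.6. The counting intervals are exact binomial intervals from scipy 1.17.1. Elements named are the 10 highest and 10 lowest called ratios, for each gene list the 2 highest and 2 lowest called and its defining genes, the genes with the most called elements, and up to 3 elements of each day 4 comparison. Members and lists were chosen with earlier results of these data known. The genes Sp5, Nkd1, Cyp26b1, Dhrs3, Nrip1, Ptch1, Gli1 and Gas1 and the remaining genes called between p2 and p0-1 were added after their values were seen. A few items that the rule names are not reported here.

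Replicate numbers were checked as pairs by correlating deviations from the group mean across elements. Samples of the same number correlated at 0.691 to 0.785 between p2 of 10 and 100 nM, 0.395 to 0.839 between p2 and p0-1 and 0.652 to 0.788 between p2 and pMN, so the numbers pair these groups and the 6 p2 samples may stand for 3 differentiations. Alternatives covered filter, threshold, scaling, test, block and left-out replicates; quantile normalization, the filter on the mean of group means, the fold change above 2 with centering, the share of reads with p2 averaged by number and a block by the numbers of the sample descriptions were chosen after seeing the data.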

Additional observations from a re-analysis of the deposited data

Results flagged for a closer look

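In 109 groups of 6 p2 samples, 2 had a sample far from the others; chance gives such a sample in about 1 in 20 groups. At the Thy1 element, p2 10 nM replicate 1 had 77.3 normalized counts, and the nearest of the other p2 samples had 111. At the Frmd4b element, p2 100 nM replicate 3 had 22.8, and the nearest had 13.3.

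Comparisons within day 4 differed between groups by the limma test: 6 elements between p2 and p0-1, 3 between p2 and pMN and 425 between p2 and p3. Their values and the samples on which they rest are given with the comparisons.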

How the results depend on the processing

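For NMP against p2, the counts of 7491 called, 5199 opened and 2292 closed elements stayed within 1.5 times under limma voom, the threshold on the log2 scale of the table, an adjusted p under 0.05, no variance trend, all 67 samples in 1 fit, p2 samples averaged by number, either SAG concentration alone, and the filter on the mean of group means. The replicate block gave 7491 (5199 opened and 2292 closed). Whether numbers pair NMP with p2 is unclear, since samples of the same number correlated at -0.113 to 0.33. Their medians were 0.268 for p2 of 10 nM and 0.207 for 100 nM, against -0.113 and -0.0693 for different numbers. Replicate 1 was negative at both concentrations (-0.113 and -0.0434), and replicates 2 and 3 were positive (0.207 to 0.33). Without the filter, 39168 were called (27877 opened, 11291 closed), by construction from more elements tested. At a fold change above 2, 15148 were called and 8609 closed, and with centering on promoter-TSS elements 11536 and 4189. Centering on promoter-TSS elements left 1198 closed, on all tested elements 1348, and quantile normalization 1512; the cause was not tested. Leaving out 1 sample gave 7158 to 7835 called, 4728 to 5878 opened and 1689 to 2621 closed.

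Between p2 and p0-1 the count was 48 without the filter, 56 at a fold change above 2, 3 on the log2 scale of the table, 3 by limma voom and 11 with the block, and 1 to 9 without 1 sample. Between p2 and pMN it was 15 without the filter, 83 at a fold change above 2, 2 on the log2 scale of the table and 2 to 6 without 1 sample, and the block gave 3. Between p2 and p3 it was 3479 without the filter, 2179 at a fold change above 2 and 329 to 477 without 1 sample (225 to 391 higher and 59 to 131 lower in p2, against 335 and 90); the block gave 425 by either numbering, and samples of the same title number correlated at -0.0679 to 0.616. Between p2 of 10 and 100 nM it was 0 in every alternative, also without each sample, and the block had 5394 at an unadjusted p under 0.05. The promoter share differed by -3.29 points, by -3.93 to -2.83 without 1 sample, by -6.63 with elements within 1000 bp of a TSS and by -2.70 with capped counts; with p2 samples averaged by number the exact p rose from 0.0119 to 0.1, the smallest that 3 against 3 allows.

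Of 75 called elements named for NMP against p2, 52 passed the filter on the mean in all 15 alternatives (limma voom, both scalings, the block, each SAG concentration and each left-out sample), and 47 of these kept their call in all. The other 23 fell below the filter in at least 1, and 20 of them kept their call where tested. In all, 8 lost it in at least 1 and 0 changed sign. Of the 8 tested but uncalled ones in this tally, 0 became called. The Gli1 and Ptch1 elements nearest a TSS, also uncalled, were not part of it. Elements near 0 reads in NMP limit the precision of their ratios, and the low-end difference between NMP and p2 samples was not modelled.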
